A study of Mus musculus with 23 samples.

Results

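Genes that mark the granule cells and Purkinje cells of the cerebellum were followed through brain RNA of Grin2b-C456Y mutant and wild-type mice with and without foot-shock. The 8 genes are a list of cerebellar markers (Fat2, Cbln1, Cbln3, Gabra6 and Zic1 for granule cells, and Pcp2, Car8 and Rgs8 for Purkinje cells), and all 8 were among the 18578 genes of the deposited table. The list was chosen by the genes' known roles and with earlier results of these data in view. In those results Fat2 had been named for its difference between shocked and unshocked mutants, so that comparison is given below as a description without a test. The libraries came from male C57BL/6J mice. They fell into 6 wild-type controls (WT control), 5 wild-type mice given foot-shock (WT shock), 6 Grin2b-C456Y knock-in controls (HT control) and 6 knock-in mice given foot-shock (HT shock). The labels call the mutant genotype heterotype and the series text calls it heterozygous. The allele alters Grin2b, the gene of the NMDA receptor subunit GluN2B. The labels give the age as P17 while the series text speaks of adult mice, and the age was not settled here. The tissue is given as brain with no region named, and the labels do not tie libraries to separate animals. The p-values therefore measure the spread between libraries, which may be technical.

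The cerebellar cortex is built around a simple circuit. Granule cells, the most numerous neurons of the brain, send parallel fibres that excite Purkinje cells, and Purkinje cells are the sole output of the cortex. Granule cells secrete cerebellin 1, the product of Cbln1, which bridges neurexins on the parallel fibre to a receptor on the Purkinje cell and holds the synapse together. Several of the genes are also active elsewhere in the brain: Zic1 in the septum, olfactory bulb and meninges, and Cbln1 in parts of the thalamus, for example. In bulk RNA, fewer cells of a type and less RNA per cell cannot be told apart.

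The genes lie at scattered places in the mouse genome, and the positions given are those of whole protein-coding genes in GENCODE M21 on GRCm38. Fat2 (ENSMUSG00000055333), an atypical cadherin of parallel fibres, spans chr11:55250609-55336564 on the minus strand, with 14.5 kb of exons. Gabra6 (ENSMUSG00000020428), the alpha6 subunit of the granule cell GABA-A receptor, lies on the same chromosome and strand at chr11:42306437-42321072. Cbln1 (ENSMUSG00000031654) is at chr8:87468405-87472609 on the minus strand. Its partner Cbln3 (ENSMUSG00000040380), a cerebellin that assembles with Cbln1, is at chr14:55878913-55884392 on the minus strand. Zic1 (ENSMUSG00000032368), a zinc finger transcription factor of the granule lineage, is at chr9:91358058-91365810 on the minus strand. Of the Purkinje cell genes, Pcp2 (ENSMUSG00000004630), a modulator of Gi and Go proteins, is at chr8:3623371-3625545 on the minus strand. Car8 (ENSMUSG00000041261), a carbonic anhydrase relative without enzyme activity that binds the IP3 receptor, is at chr4:8143362-8239041 on the minus strand. Rgs8 (ENSMUSG00000042671), a regulator of G protein signalling, is at chr1:153653025-153700323 on the plus strand.

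Promoter sequence is shown for 3 granule cell genes that varied together across libraries and for Pcp2, the one gene of the 8 with a positive difference between the shocked groups. The sequences are RefSeq's on GRCm38.p6, which gave an entry for 6 of the 8 genes. Of the 250 bases upstream of the RefSeq start, only the longest stretch that no annotated exon of any gene covers is printed. For Gabra6, Cbln3 and Zic1 this stretch adjoins the gene. For Pcp2 it stops short of the gene's start at chr8:3625545, so the bases nearest that start are not shown. Each reads 5′ to 3′ along the gene's own strand, and the capitals mark matches on either strand to the E-box CANNTG, the core of sites for basic helix-loop-helix factors such as Neurod1, or to TTGGC, the core of sites for nuclear factor I proteins. No match overlapped another. The windows are chr11:42321073-42321322 for Gabra6, chr14:55884393-55884506 for Cbln3, chr9:91365811-91366018 for Zic1 and chr8:3625607-3625778 for Pcp2, all on the minus strand.
Gabra6: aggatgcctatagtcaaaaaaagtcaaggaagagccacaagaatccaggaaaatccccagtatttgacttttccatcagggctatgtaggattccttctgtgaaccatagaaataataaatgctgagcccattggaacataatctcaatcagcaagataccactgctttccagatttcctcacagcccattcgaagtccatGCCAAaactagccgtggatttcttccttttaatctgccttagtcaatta
Cbln3: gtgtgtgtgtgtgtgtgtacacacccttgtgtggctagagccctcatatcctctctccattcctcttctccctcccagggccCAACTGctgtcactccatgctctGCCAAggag
Zic1: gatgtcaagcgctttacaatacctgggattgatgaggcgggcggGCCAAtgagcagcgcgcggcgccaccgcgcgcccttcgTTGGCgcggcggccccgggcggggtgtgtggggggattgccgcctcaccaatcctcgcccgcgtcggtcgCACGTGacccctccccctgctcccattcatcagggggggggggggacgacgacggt
Pcp2: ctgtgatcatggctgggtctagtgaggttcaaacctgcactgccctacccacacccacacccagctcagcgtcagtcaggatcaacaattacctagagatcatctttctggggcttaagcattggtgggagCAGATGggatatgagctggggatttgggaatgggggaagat
The stretch of Gabra6 held 1 match to TTGGC and no E-box. Cbln3 held 1 match to each, Zic1 held 1 E-box and 2 matches to TTGGC, and Pcp2 held 1 E-box and no TTGGC. Both motifs are common: among 32841 RefSeq windows of 250 upstream bases, 66.2% held an E-box and 41.5% held TTGGC. These matches describe the letters only.

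Across the whole table the libraries resembled each other, with totals of 30980153 to 32569746 normalized counts and Pearson correlations of 0.981 to 0.991 between libraries over genes. Grin2b, the edited gene, stood at 13621 ± 1019 in the 6 WT control libraries (mean ± SD). It stood at 12833 ± 1389 in the 5 of WT shock, 12301 ± 1678 in the 6 of HT control and 10704 ± 655 in the 6 of HT shock. A knock-in of a single amino acid need not change its level, so Grin2b does not check the labels. In limma, fitted on log2(normalized count + 1) over 17118 genes, it did not pass between HT shock and WT shock (-0.26 ± 0.08, SE, adjusted p = 0.0507). HT control replicate 6 stood apart from its group: limma's library weights gave it 0.24, against 0.709 for the next lowest of the 23 libraries. Several values below move when it is left out, and the main ones are given with and without it. Marker genes of many brain regions were present alongside the cerebellar ones, with no gene of any list used here listed at 0 in any library.

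Per kilobase of exon, the 8 genes formed an order that most libraries shared. Cbln1 was highest at 1616 ± 152 normalized counts per kb (SD over 23 libraries). Cbln3 followed at 1383 ± 138 and Car8 at 1375 ± 109, and these neighbours did not differ beyond their spread, with Cbln3 above Car8 in 14 of 23 libraries. Gabra6 at 1113 ± 122 and Zic1 at 1049 ± 126 also lay within their spread, although Gabra6 was above Zic1 in 19 of 23 libraries. Rgs8 stood at 914 ± 61.1, Pcp2 at 801 ± 76.1 and Fat2, with by far the longest transcript, at 322 ± 35.9. Rgs8 exceeded Pcp2 in 19 libraries. Car8 exceeded Gabra6, Zic1 exceeded Rgs8 and Pcp2 exceeded Fat2 in all 23. Within groups, Rgs8 was the steadiest of the 8, with an SD of 0.08 on the log2 scale, and Zic1 the most variable at 0.17.

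After foot-shock, Fat2 and Rgs8 were lower in the mutants than in wild types, and the remaining genes of the list did not pass the test. Among the 8 genes, 2 were called lower and 0 higher in HT shock against WT shock (limma, Benjamini-Hochberg adjusted p under 0.05 over all 17118 genes). In the same comparison 9.28% of all genes were called, 5.33% lower and 3.95% higher. The 5 granule cell genes had a median difference of -0.18 on the log2 scale and all 5 were negative. The 8 genes together had a median of -0.15 with 7 negative, where all genes had a median of 0.00368 and 49.2% were negative. The HT shock libraries are also those in which Fat2 had been noticed, so this comparison is not independent of that choice.

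Fat2 showed the widest separation. The WT shock libraries, replicates 1 to 5, held 4744, 5576, 4916, 4509 and 4994 normalized counts. The HT shock libraries ran from 3489 through a median of 4147 to 4447. Every HT shock library was therefore below every WT shock library, as was so, with the lower group being the mutants, for 4.82% of all genes. WT control ran from 4155 through 4789 to 5224 and overlapped HT shock, while HT control ran from 4469.9 through 4955 to 5323 and lay just above it. Fat2 fell by 18.6% between the shocked groups (log2 difference -0.30 ± 0.06, SE; limma adjusted p = 0.011).

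Cbln3, which leaves the granule cell only in company with Cbln1, gave 6853, 7969, 6630.1, 6042 and 7116 in the WT shock libraries. In HT shock it ran from 5343 through 6007 to 7014, and the groups overlapped. The difference of -0.19 ± 0.07 did not pass (limma adjusted p = 0.0681), although it did without HT control replicate 6 (adjusted p = 0.0454, with 17.1% of all genes called), HT shock replicate 4 (0.0396) or WT shock replicate 4 (0.0362). Cbln1, the abundant partner, gave 4582, 5167, 4815, 4860.3 and 5134 in WT shock and 4399, 4725 and 5474 as lowest, median and highest in HT shock. Its groups overlapped over most of their range, and the difference of -0.02 had a 95% interval of -0.16 to 0.13 (limma adjusted p = 0.892).

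Gabra6, which gives granule cells their tonic, extrasynaptic inhibition, held 2611, 3288, 2942, 2479.9 and 2857 in WT shock and ran from 2119 through 2478 to 3084 in HT shock. The difference was -0.18 ± 0.08 with a 95% interval of -0.34 to -0.02, which did not pass after adjustment (limma adjusted p = 0.14). Zic1 held 5628, 8124, 6041, 5149.9 and 5882 in WT shock and ran from 4837 through 5691 to 6029 in HT shock. Both genes had their highest WT shock value in replicate 2 and their lowest in replicate 4. So did Fat2 and Cbln3, and also the Purkinje cell genes Rgs8 and Pcp2. The Zic1 difference was -0.14 ± 0.09, with a 95% interval of -0.33 to 0.05 (limma adjusted p = 0.341).

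The Purkinje cell genes did not share a direction. Rgs8 held 9324, 9552, 9245, 8428 and 9126 in WT shock and ran from 7717 through 8219 to 8499 in HT shock. WT shock replicate 4 alone reached into the HT shock range. Rgs8 fell by 10.5% (log2 difference -0.16 ± 0.05, SE; limma adjusted p = 0.0321). The call was lost without HT shock replicate 1, 2 or 3 or WT shock replicate 1, 2, 3 or 5, with adjusted p from 0.0559 to 0.0828.

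Car8 held 5340.0, 5578, 5672, 4674 and 5250.0 in WT shock and ran from 4691 through 4963 to 5658 in HT shock. These ranges overlapped almost fully, and the difference was -0.08 with a 95% interval of -0.21 to 0.06 (limma adjusted p = 0.471). Pcp2 was the one gene of the list with a positive difference. It held 1396, 1495, 1398, 1354 and 1472 in WT shock and ran from 1446 through 1569 to 1837 in HT shock. The groups overlapped, and the difference of 0.15 ± 0.06 did not pass (limma adjusted p = 0.109), although it did with library weights (0.17, adjusted p = 0.033), under which 22.1% of all genes were called.

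**Figure D1:**
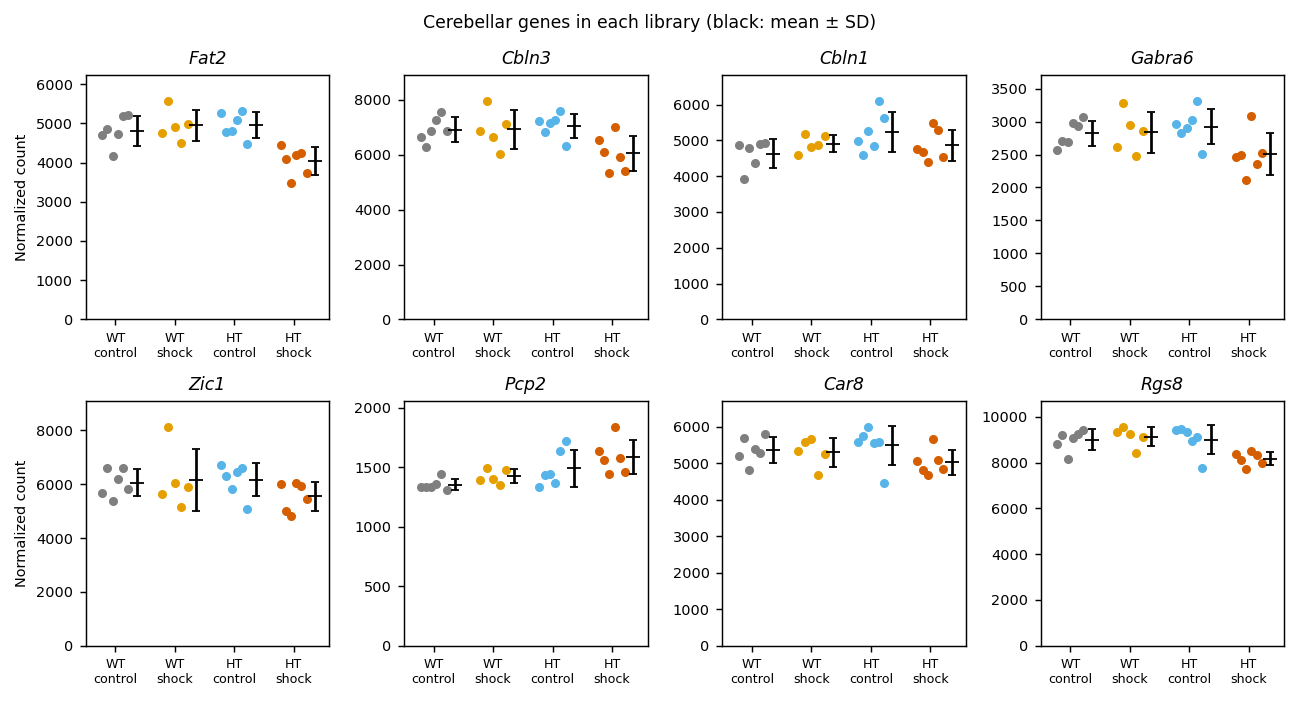
Normalized count (vertical axis, from 0) of each cerebellar gene in each of the 23 libraries by group, with the group mean and SD in black. Fat2 in HT shock lies between 3489 and 4447, below every WT shock and HT control library, and Pcp2 in HT shock lies between 1446 and 1837.

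The lower values sat beside a relation between difference and transcript length that ran through the whole table. In HT shock against WT shock the median log2 difference was 0.10 over the 959 genes whose longest transcript is under 1 kb, 0.03 over the 7072 genes of 2 to 4 kb, and -0.16 over the 936 genes above 8 kb. Fat2, at 14.5 kb, was at -0.30 where its length class was at -0.16, and Rgs8, at 8.47 kb, was at -0.16, the same as its class. Gabra6, at 2.47 kb, was at -0.18 where its class was at 0.03, and Pcp2, at 1.61 kb, was at 0.15 where its class was at 0.08. After a correction for length and GC content, which was chosen after the data were seen, Fat2 was at -0.20 ± 0.07 (limma adjusted p = 0.0952) and Rgs8 at -0.06 ± 0.04 (limma adjusted p = 0.334). No gene of the 8 then passed, against 5.26% of all genes, of which 479 were higher and 422 lower where the uncorrected values gave 676 higher and 913 lower. The part of length in the results was not tested further.

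Other genes of the same cells came from lists of markers. Of 22 granule cell genes, 2 fell and 0 rose in HT shock against WT shock, 19 were negative, and the median was -0.14. Of all genes 5.33% fell and 3.95% rose, so the calls in the list were near the share over all genes. Fat2 was 1 of the 2, and the other was Etv1, a transcription factor of maturing granule cells (-0.27 ± 0.08, SE; limma adjusted p = 0.0427). Fat2 alone of the list was called without HT control replicate 3, HT shock replicate 1, 2, 3 or 5, or WT shock replicate 1, 2, 3 or 5. Without HT control replicate 6, 5 of the list were called, with 17.1% of all genes called. Leaving the 5 genes described above out of the list, 14 of 17 were negative, with a median of -0.14. Measured against their length classes, 18 of the 22 lay below the class median, by a median of -0.11. The summed level of the 22 genes ran from 53456 to 65600 in WT shock and from 49497 to 58741 in HT shock, and these ranges overlapped.

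Of 18 Purkinje cell genes, 3 fell and 1 rose in the same comparison, 8 were negative and the median was 0.04. Of all genes 5.33% fell and 3.95% rose. Rgs8 was 1 of the 3 that fell. Rora, a nuclear receptor needed for Purkinje cell development, was another (-0.29), and its naming was chosen after its values were seen. Its longest transcript is 10.9 kb, and all genes above 8 kb had a median of -0.16. The gene that rose is not reported here. The 3 lower calls became 0 without HT shock replicate 1, 2 or 3 or WT shock replicate 1, 2 or 5, and 1 without WT shock replicate 3. With the length and GC correction 0 fell, 10 were negative and the median was -0.00. Without HT control replicate 6, 4 fell and 2 rose, with 17.1% of all genes called. Relative to their length classes, 10 of the 18 genes lay below the median, by a median of -0.01. The summed level ran from 78237 to 87930 in WT shock and from 77305 to 82569 in HT shock.

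The list of cerebellins and their partners includes neurexins and C1q-like proteins. Of its 12 genes, 2 fell, 0 rose and the median was -0.02, where 5.33% of all genes fell and 3.95% rose. Nrxn3, a presynaptic receptor for cerebellins, was 1 of the 2 (-0.21 ± 0.06, SE; limma adjusted p = 0.0342). The 2 calls became 0 without HT shock replicate 1, 2 or 3 or WT shock replicate 1 or 2, and with the length and GC correction. They became 4 without HT control replicate 6, with 17.1% of all genes called. Among 12 markers of other cerebellar cells none was called, 7 were negative and the median was -0.06. The smallest p there belonged to Slc1a3, the glutamate transporter of Bergmann glia (-0.11, limma adjusted p = 0.14), and Eomes, a marker of unipolar brush cells (0.24, adjusted p = 0.153). Of the 12, 4 had an unadjusted p under 0.05, as did 4773 of all genes.

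**Figure D2:**
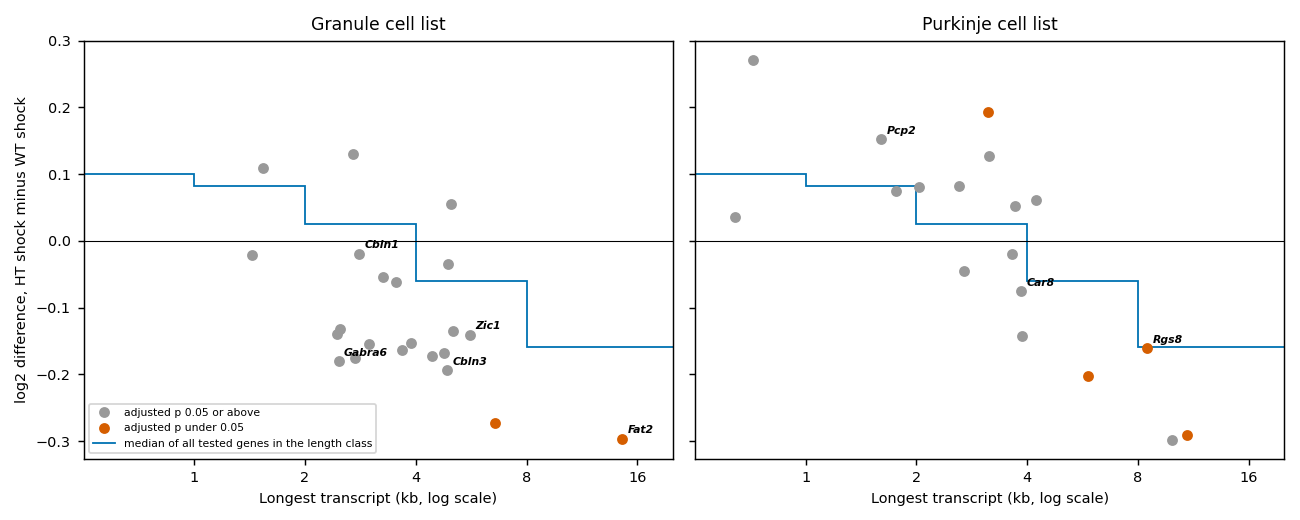
Log2 difference between HT shock and WT shock (vertical axis) against length of the longest transcript in kb (horizontal axis, log scale) for the granule cell list (left) and the Purkinje cell list (right), with the median of all tested genes in each length class as a stepped line and called genes in orange. On the left 18 of 22 genes lie under the line, and on the right 10 of 18.

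Markers of other brain regions and cells moved in the same comparison, and their part in the results above was not tested. Of all genes 5.33% were called lower there. All 10 striatal projection neuron markers were negative, with 7 called lower (7 to 8 with any 1 library left out) and a median of -0.52. They included Adora2a, an adenosine receptor (-0.69), Drd2, a dopamine receptor (-0.56), and Scn4b, a sodium channel subunit (-0.54). Their summed level ran from 37539 to 38250 in WT shock and from 22034 to 34124 in HT shock, with no overlap. All 10 mature oligodendrocyte markers were negative too, with 7 called lower (2 to 7 with 1 library left out, the fewest without HT shock replicate 1, 2 or 3 or WT shock replicate 4 or 5) and a median of -0.27, the myelin genes Mobp (-0.33) and Mbp (-0.28) and the tight junction gene Cldn11 (-0.27) among them. Their sums, 233602 to 294951 in WT shock and 193662 to 242051 in HT shock, overlapped.

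In the thalamus list 2 of 10 genes fell, where 5.33% of all genes did. They were Slc17a6, a vesicular glutamate transporter (-0.33), and Tcf7l2, a transcription factor (-0.35). The list's median was -0.10. The calls became 0 without HT shock replicate 1 or 2, and 1 without HT shock replicate 4 or WT shock replicate 1 or 5. The summed thalamic level ran from 14691 to 16399 in WT shock and from 13121 to 15978 in HT shock. In the hindbrain and spinal list 1 of 12 fell, the glycine receptor gene Glra1 (-1.04 ± 0.33, SE; limma adjusted p = 0.0489), and the median was -0.23. Leaving out 1 library gave 0 to 3 lower calls, with 3 without HT control replicate 6, where 17.1% of all genes were called in either direction. Its sum ran from 1221 to 2299 in WT shock and from 933 to 1656 in HT shock. None was called by limma in 3 further lists, where 2, 0 and 0 genes had an unadjusted p under 0.05, against 4773 of all genes. The 9 markers of septal and olfactory neurons include Zic1 itself, and their median of -0.14 is Zic1's own difference. Whether the cells that the other markers stand for express Zic1 was not tested. Of the 9, 5 were negative and 4 positive, with the smallest p for Tbr1 (0.14, limma adjusted p = 0.0935) and Eomes. The 10 meningeal and perivascular fibroblast markers had a median of 0.01, with the smallest p for Lum (0.25, adjusted p = 0.404) and Foxc1 (0.13, adjusted p = 0.448). For 10 markers of choroid plexus and ependyma the median was 0.08, with the smallest p for Tmem212 (0.28, adjusted p = 0.501) and Otx2 (0.09, adjusted p = 0.566).

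Without shock, the mutants and wild types differed in none of the 8 genes by the test. In HT control against WT control 0 of 8 were called, as were 0% of the 17118 genes (limma), and 2 of the 8 had an unadjusted p under 0.05, as did 1895 of all genes. Those 2 were Cbln1 and Pcp2, both with higher values in the mutants. Cbln1 ran from 3912 through 4823 to 4941 in WT control and from 4581 through 5121 to 6107 in HT control, and 0.18 ± 0.07 separated the groups (limma adjusted p = 0.394). Pcp2 ran from 1308 through 1334 to 1440.3 in WT control and from 1332 through 1438 to 1722 in HT control, a difference of 0.14 ± 0.06 (limma adjusted p = 0.421). Both pairs of ranges overlapped. The other 6 genes differed by at most 0.05. Rgs8 had a 95% interval of -0.09 to 0.09 and Fat2 one of -0.08 to 0.17. Of the granule cell list 19 of 22 were positive with a median of 0.05, and 0 were called by limma, with 5 at an unadjusted p under 0.05. Other lists were as one-sided in this comparison with larger medians: 10 of 10 striatal markers were negative (median -0.26), and 10 of 10 fibroblast markers (0.25) and 10 of 10 choroid plexus and ependymal markers (0.29) were positive. Within the granule cell list, the smallest p outside the 8 was that of Gabrd, the delta subunit that pairs with Gabra6 in the GABA-A receptor (0.16 ± 0.06, limma adjusted p = 0.384). Of the Purkinje cell list 12 of 18 were positive with a median of 0.03, and the smallest p belonged to Homer3, a postsynaptic scaffold (0.13, limma adjusted p = 0.384), and Slc1a6, a Purkinje cell glutamate transporter (0.15, limma adjusted p = 0.399).

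Foot-shock in wild types left the 8 genes within their spread. In WT shock against WT control 0 of 8 were called, against 0% of all genes (limma), and 0 of the 8 had an unadjusted p under 0.05, as did 637 of all genes. The differences ran from -0.02 for Car8 to 0.09 for Cbln1, each with an adjusted p of 0.998. The 95% interval was -0.09 to 0.18 for Fat2, -0.14 to 0.14 for Cbln3, -0.16 to 0.17 for Gabra6 and -0.07 to 0.12 for Rgs8. The granule cell list had a median of 0.01 with 15 of 22 positive, and Calb2 (0.09) and Crtam (0.13) had the smallest p. The Purkinje cell list had 10 of 18 negative and a median of -0.00.

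Between the shocked and unshocked mutants the genes are described without a test. Fat2 in HT shock (3489 to 4447) was below every HT control library (4469.9 to 5323). Such a separation, with HT shock lower, held for 0.105% of all genes, and nothing is read from that share because Fat2 had been named for this comparison. The difference was -0.30 for Fat2, -0.23 for Cbln3, -0.23 for Gabra6, -0.15 for Zic1 and -0.10 for Cbln1. Among the Purkinje cell genes it was -0.14 for Rgs8, -0.12 for Car8 and 0.09 for Pcp2. HT control replicate 6 was the lowest of its group in Fat2, Cbln3, Gabra6, Zic1, Car8 and Rgs8 and the highest in Pcp2, at 1722. Without that library the difference was -0.33 for Fat2, -0.26 for Cbln3, -0.27 for Gabra6, -0.18 for Car8 and -0.18 for Rgs8. Over all 17118 genes limma called 0% with every library in the fit. This comparison shares its HT shock libraries with the one against WT shock. Over the granule cell list 20 of 22 genes were negative with a median of -0.19 (20 and -0.21 without HT control replicate 6), and over the Purkinje cell list 11 of 18 with a median of -0.04 (11 and -0.06 without it). Outside the 8, Pax6, a transcription factor of granule cells, was at -0.23.

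Whether foot-shock acted differently in the 2 genotypes was asked with the interaction term. It called 0 of the 8 genes and 0% of all genes (limma), with an unadjusted p under 0.05 for 4 of the 8 and for 1101 of all genes. It was -0.34 ± 0.09 for Fat2 (limma adjusted p = 0.552), -0.23 ± 0.11 for Gabra6 (adjusted p = 0.772) and -0.22 ± 0.09 for Cbln3 (adjusted p = 0.758). It was -0.16 for Rgs8 (adjusted p = 0.758), -0.19 for Cbln1, -0.17 for Zic1, -0.11 for Car8 and 0.02 for Pcp2. All 22 granule cell genes had a negative interaction, with a median of -0.19, where 50.2% of all genes were negative. Without HT control replicate 6, 21 of 22 were negative with a median of -0.22. Lists of other cells leaned the same way: the term was negative for 10 of 10 meningeal and perivascular fibroblast markers (median -0.25), 10 of 10 mature oligodendrocyte markers (-0.17) and 9 of 10 striatal markers (-0.22). None of the 22 granule cell genes was called, and 10 had an unadjusted p under 0.05. The next smallest p after Fat2 was that of Zic2, a paralogue of Zic1 (-0.19 ± 0.07, limma adjusted p = 0.724). Against their length classes 21 of the 22 were lower. The Purkinje cell list had 12 of 18 negative and a median of -0.06. The term contains the difference between HT shock and HT control for which Fat2 had been named. Its p-values for Fat2, and for genes listed with that result in view, are therefore not independent tests. Nothing is read from them.

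**Figure D3:**
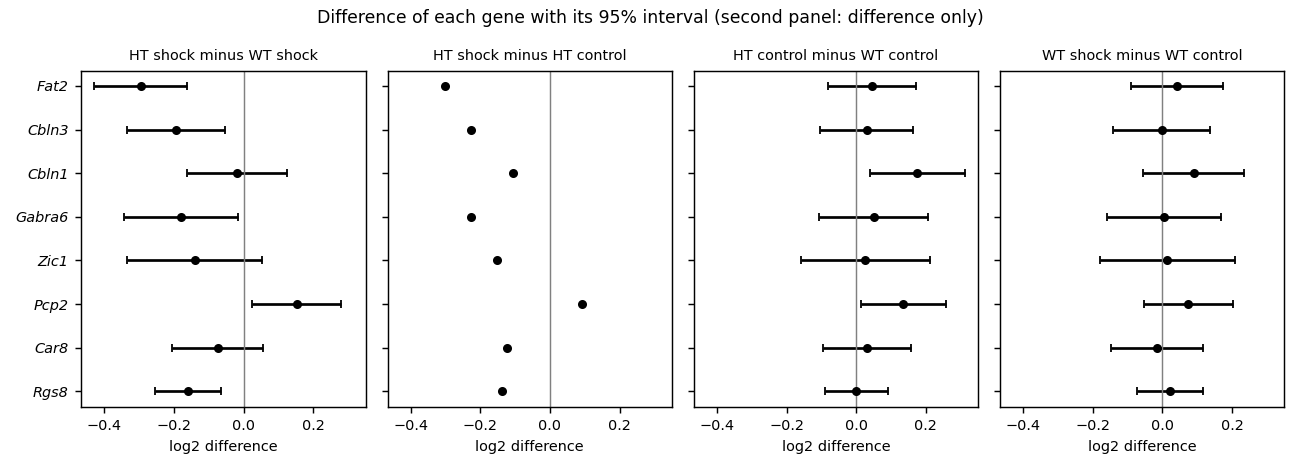
Log2 difference (horizontal axis) of each of the 8 genes in 4 comparisons, 1 per panel, with its 95% interval except in HT shock against HT control, which is shown without a test. Fat2 is at -0.30 in both panels that hold HT shock, and the intervals of all 8 genes include 0 in WT shock against WT control.

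The genes varied together within groups in a pattern that crossed their cell types. After each gene's log2 values were centred on its group means, Car8 and Rgs8 had a Pearson r of 0.92 over the 23 libraries (Spearman 0.82; Pearson 0.86 without HT control replicate 6). Among the granule cell genes r was 0.81 for Cbln3 with Gabra6, 0.80 for Fat2 with Zic1 and 0.73 for Fat2 with Cbln3. Fat2 and Zic1 were nearly as close to the Purkinje cell gene Rgs8 (0.76 and 0.73). Pcp2 had r of 0.67 with Cbln1, 0.46 with Cbln3, 0.35 with Gabra6, -0.03 with Car8 and -0.09 with Rgs8. These last 4 rested on 1 library: without HT control replicate 6 they were 0.77, 0.69, 0.44 and 0.39, with 0.67 for Cbln1. Without it Pcp2 also had 0.51 with Fat2, where it had 0.26 with it, and Cbln1 had 0.57 with Cbln3, where it had 0.46. These values describe genes measured in the same libraries under the same scaling, and carry no test.

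**Figure D4:**
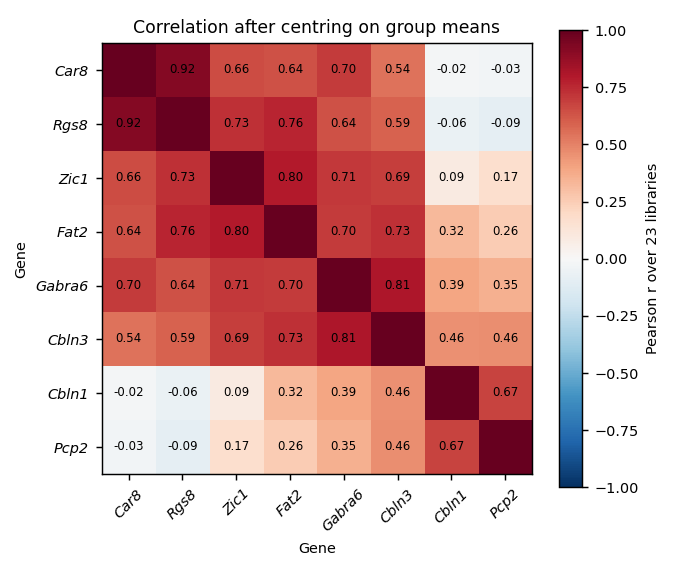
Pearson r between each pair of the 8 genes over 23 libraries after centring on group means, from blue (-1) to red (1). Car8 and Rgs8 are at 0.92 and Cbln1 and Pcp2 at 0.67, and the values of Pcp2 depend on HT control replicate 6 (Pcp2 with Cbln3 is 0.46 here and 0.77 without that library).

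Genes outside the list that followed each member most closely were sought among 14003 genes by the same centred Pearson r over 23 libraries. Fat2 was followed by Chn2, a Rac GTPase-activating protein, at 0.77 and Lurap1 at 0.76, and Cbln3 by Chn2 at 0.80 and Neurod1 at 0.77. Neurod1, a helix-loop-helix factor of granule cells, was also the nearest gene to Gabra6 at 0.85, with Btbd3 next at 0.83. Zic1 was nearest to Sptb, a spectrin, at 0.82 and Svep1 at 0.81, and Cbln1 to Tprn at 0.86 and Gpx7 at 0.81. Pcp2 was nearest to Calb2, the calcium-binding protein calretinin, at 0.84 and Smarcb1, a chromatin remodeller subunit, at 0.80. Car8 and Rgs8 shared both of their nearest genes, Icmt (0.87 and 0.86) and Pld5 (0.87 and 0.88). Without HT control replicate 6 these were 0.78 and 0.74 for Icmt and 0.78 and 0.79 for Pld5. In HT shock against WT shock, Sptb (-0.17, limma adjusted p = 0.0209) and Pld5 (-0.31, limma adjusted p = 0.026) fell, while Chn2 (-0.15, adjusted p = 0.106), Lurap1 (-0.16, adjusted p = 0.0566) and Neurod1 (-0.17, adjusted p = 0.241) did not pass.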

How the data were processed

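Values in the authors' table are a signal, here normalized counts with decimals, for each gene in each library. RNA libraries were made with a stranded mRNA kit, per the labels' protocols. Salmon 1.1.0, R 3.6.2, DESeq2 1.26.0 and GRCm38 are named in the submitters' processing notes, without roles. Of the 24 library columns, 1 matched no labelled sample and was not used. Values under 15 came out as whole multiples of a step (within 0.1) in only 24.5% to 60.9% of cases per library, so read depth is unknown and no counting interval is given.

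Groups came from the sample titles. Gene symbols and positions were matched from GENCODE M21 for 18563 of the 18578 IDs. limma 3.58.1 (R 4.3.3) was fitted to log2(value + 1) for the 17118 genes with a mean of at least 10, all 8 described genes among them, with the 4 groups in 1 fit and trend and robust variance. Calls were made at a Benjamini-Hochberg adjusted p under 0.05 over all of these genes. Fold differences are on the log2(value + 1) scale, ± is the SE for differences and the SD for levels, and intervals are 95%. On data simulated for HT shock against WT shock over 17118 genes, 37.3% of changes of 0.25 and 70.0% of changes of 0.5 on the log2 scale were recovered, with 16 false calls among 50754 unchanged genes over 3 runs. The simulated noise was normal and independent between genes. It held neither the covariation between genes nor the outlying library of the real data, so these rates do not carry over to them.

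The 8 genes and all marker lists were chosen with earlier results of these data known. Genes named are the 8, the 2 nearest genes of each by centred correlation (mean of at least 20, no clone names), up to 3 called genes of each list or else the 2 with the smallest p, and Grin2b. Some genes that the rule names are not reported here. The cerebellar lists are granule cell, Purkinje cell, other cerebellar cell, and cerebellins and their partners. The others are hindbrain and spinal, thalamus, striatal projection neuron, meningeal and perivascular fibroblast, choroid plexus and ependyma, mature oligodendrocyte, and septal and olfactory neuron. Alternatives covered scaling, low-value filters, the pseudocount, the groups in the fit, blocks, library weights, each library left out in turn and, added later, a correction for transcript length and GC content.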

Additional observations from a re-analysis of the deposited data

Results flagged for a closer look

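In 3 of the 32 gene and group pairs checked, 1 library lay far from the others of its group, a gap that chance gives in about 1 in 20 groups. Pcp2 in WT control replicate 5 was at 1440.3 normalized counts, where the other libraries of the group lay between 1308 and 1357. Car8 in HT control replicate 6 was at 4472, where the others lay between 5553 and 5997. Rgs8 in the same library was at 7775, where the others lay between 8928 and 9479. HT control replicate 6 is thus the source of 2 of the 3, and the Car8 and Rgs8 differences between HT shock and HT control without it were -0.18 for each gene, against -0.12 and -0.14 with it.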

How the results depend on the processing

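No called value changed sign under the alternatives run. With median centring the levels of the 8 genes moved by less than 1 SD. Leaving out 1 library cannot move a group mean by 1 SD, so it does not check the levels on that measure. In HT shock against WT shock, Fat2 passed in 32 of 33 alternatives, with differences from -0.33 to -0.20 and adjusted p up to 0.0952, and was lost with the length and GC correction. Rgs8 passed in 24 of 33, with differences from -0.19 to -0.06. The alternatives that drop a WT control or HT control library leave these differences as they are and change only the estimated spread. Among those that drop a compared library, Rgs8 passed only without HT shock replicate 4, 5 or 6 or WT shock replicate 4. The 1589 genes called in HT shock against WT shock became 2932 when the fit held the compared groups alone, 3775 with library weights, 901 with the length and GC correction, and 422 (without HT shock replicate 1) to 2923 (without HT control replicate 6) with 1 library left out. The 2 of 8 cerebellar genes called became 0 with the length and GC correction and 1 to 3 with 1 library left out. In HT shock against HT control, where 0 genes were called, library weights gave 2792 genes, and leaving out 1 library gave 0 to 2065 genes, the highest without HT control replicate 6. Calls on the 8 genes are not given for this comparison, in which Fat2 had been named. The compared groups alone gave 1 gene and the length and GC correction 4. In HT control against WT control the correction gave 1 gene and leaving out 1 library 0 to 2. For the interaction, library weights gave 2 genes, the correction 1 and leaving out 1 library 0 to 1. The cause of these changes was not tested. Read depth is unknown, so it sets no limit here that could be stated.

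Whether libraries with the same replicate number were paired was not settled. Among 33 same-numbered pairs, 5 had deviations that correlated over 0.1 (median 0.02), and 8 of 23 libraries matched best to their own replicate number. By library number 3 of 33 pairs correlated over 0.1, and 2 of 23 libraries matched best to their own. No such values were taken for pairs with different numbers. With the replicate block, 450 genes and 1 of the 8, Fat2, were called in HT shock against WT shock, with Rgs8 at an adjusted p of 0.073. With a block by library number, 976 genes were called. No other call on the 8 genes changed with either block.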

Other observations

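The ratio of Pcp2 to Fat2 within a library, singled out after the values were seen, separated HT shock from both wild-type groups. On the log2 scale it was -1.35 ± 0.10 (mean ± SD) in the 6 HT shock libraries, -1.80 ± 0.06 in the 5 of WT shock, -1.83 ± 0.12 in the 6 of WT control and -1.74 ± 0.21 in the 6 of HT control. HT shock ran from -1.44 to -1.19, and the highest wild-type library was at -1.64. The highest HT control library was at -1.38 and lay within the HT shock range. The transcripts differ in length, 1.61 kb for Pcp2 and 14.5 kb for Fat2, and the part of length in this ratio was not tested. The ratio of Pcp2 to Rgs8 separated the same groups. It ran from -2.45 to -2.21 in HT shock and reached at most -2.62 in WT control and -2.63 in WT shock. HT control, from -2.82 to -2.17, overlapped HT shock. Fat2 and Rgs8 are the genes called lower above, and how many other gene pairs separate these groups was not counted. The ratio of the partner genes Cbln3 and Cbln1 was 0.32 ± 0.11 in HT shock (SD, n = 6) and 0.49 ± 0.12 in WT shock (SD, n = 5), and these groups overlapped.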
